A study of Mus musculus with 9 samples.

Results

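Motile cilia axoneme genes, the genes that build and control the beating cilia of the ependyma, were followed by RNA sequencing in the brains of 9 APP/PS1 mice. The members were Foxj1 and every gene whose symbol begins with Dnah, Dnai, Dnaaf, Cfap, Rsph or Spag, 78 genes in the annotation, of which 75 had a row in the deposited table. Of these, 63 had at least 10 reads in at least 3 libraries, among 14737 genes tested in all. APP/PS1 mice carry transgenes for mutant APP and PS1 that lead to amyloid plaques, and all 9 animals had this genotype. The line and the promoters of the transgenes are not named in the labels. Stress was applied to 3 mice, while 3 controls were housed in a standard environment and 3 mice in an enriched one, with no wild-type library analysed here. The treatment label reads standard rearing for every animal, so the groups follow the group label. What the stress or the enrichment consisted of, and the age of the animals, are not stated in the labels. RNA was extracted from the anterior brain and the brain stem after perfusion, according to the design text, so a library mixes ventricle walls with much other tissue.

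Ependymal cells line the brain ventricles and carry tufts of motile cilia that move cerebrospinal fluid. The core of such a cilium, the axoneme, holds outer and inner dynein arms that power the beat, radial spokes that relay signals from the central pair of microtubules, and many smaller proteins that stabilise the microtubules. Dynein arms are put together in the cytoplasm by assembly factors before they enter the cilium. Foxj1 is the transcription factor that switches on the genes of motile cilia, together with RFX factors that bind the X-box motif. Choroid plexus epithelium, airway and nasal epithelium and sperm use many of these genes too, so a brain library may hold them from more than one cell type.

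The libraries held between 15851841 and 17212999 reads, and 1 CPM (reads scaled to the TMM-adjusted library size) stood for 15.9 to 16.8 reads. Members were scarce at this depth. The median member had a mean of 39 reads per library, for which counting error alone spans 27.7 to 53.3 reads (exact Poisson, 95% interval), and 17 members had a mean under 20 reads. Border tissues varied between libraries of the same group. Ttr, the leading choroid plexus transcript, was at 3120, 2940 and 3570 CPM in the controls, at 330, 1430 and 1390 CPM in stress, with 24, 2020 and 11 CPM for the enriched animals. Omp, a marker of olfactory sensory neurons chosen after its values were seen, reached 67.3 and 50.3 CPM in the first and the third enriched library, with at most 4.06 CPM elsewhere. Defining ependymal markers were present but low, with Ccdc153 between 0.855 and 3.44 CPM and Tmem212 between 0.488 and 1.69 CPM. In bulk tissue, fewer ciliated cells and less RNA per ciliated cell cannot be told apart.

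No member passed the test in any of the 3 comparisons. In edgeR (quasi-likelihood, Benjamini-Hochberg adjustment over all 14737 genes), 0 of 63 members had an adjusted p under 0.05, and the share called among all genes was 0%. DESeq2 and limma-voom also called 0 members, while DESeq2 called 0.0475% of all genes in stress against control and 0.319% in enriched against control. At an unadjusted p under 0.05, stress against control had 7 members, 2 higher and 5 lower, where 7.95% of all genes stood past that level (4.17% higher, 3.79% lower). Enriched against control had 9 members, all lower, against 20.3% of all genes (9.87% higher, 10.4% lower). Stress against enriched had 0 members, against 2.64% of all genes. A p that misses the threshold does not show that levels were equal.

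The direction of the members leaned low against control. In stress, 37 of 63 members had a log2 fold change below 0, against 47.7% of all genes, with a median of -0.09 against 0.02 over all genes. In enriched mice, 41 of 63 were below 0, against 48.3% of all genes, with a median of -0.15 against 0.01. Stress against enriched had 19 of 63 below 0, against 48% of all genes, and a median of 0.08 against 0.01. Values of the groups did not overlap for 8 members in stress against control (2 higher, 6 lower), where 9.87% of all genes were apart (5.17% higher, 4.7% lower). They did not overlap for 14 in enriched against control (2 higher and 12 lower, against 26.1% of all genes, 12.4% higher and 13.6% lower) and for 5 in stress against enriched (4 higher and 1 lower, against 10.5% of all genes, 5.08% higher and 5.39% lower). Both comparisons with control use the same 3 control libraries. Dnah8 is 1 of the 2 higher members in both of them, and it met the read minimum only through stress and enriched libraries. Leaving out stress replicate 3 turned the median of stress against control to 0.04, leaving out control replicate 2 brought it to -0.02 and leaving out stress replicate 1 brought it to -0.21. With the letter that starts each animal's code (C in stress and control replicate 1, D in the others, of unstated meaning) as a term in the fit, that median was 0.08. With this term stress is in effect set against control replicate 1 alone, and enriched against control replicates 2 and 3. Without stress replicate 1 the median of stress against enriched was -0.02. On the TPM scale, where the median of all genes itself stood at 0.14 and 0.12 in stress and at 0.19 and 0.16 in enriched mice (TPM + 0.1 and TPM + 1), the members' medians were 0.05 and 0.03 in stress and -0.01 and 0.00 in enriched mice. Of the 30 members named here by rule, 3 changed sign on that scale in stress (Dnaaf5, Dnah6 and Rsph3a) and 4 in enriched mice (Cfap47, Dnaic1, Rsph3a and Spag7). With the code letter term 6 changed sign in stress, 3 in enriched mice and 12 in stress against enriched. With the length trend removed 0, 5 and 2 did so, and with the choroid plexus term added to that 2, 7 and 4.

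**Figure D1:**
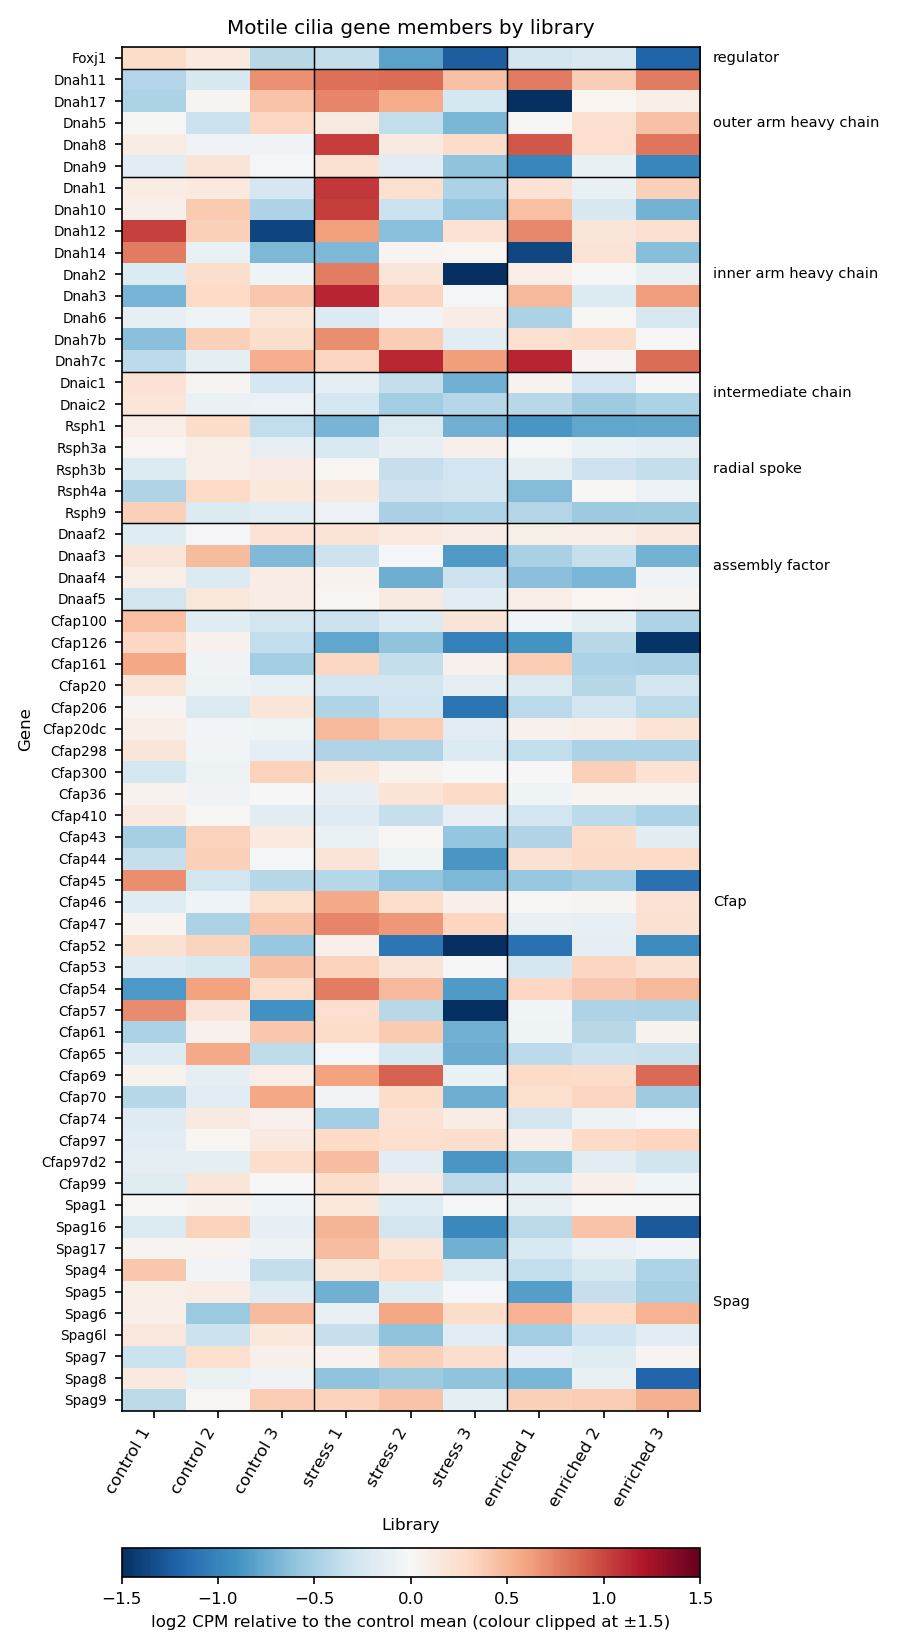
Level of each of the 63 members (rows, by role) in each of the 9 libraries (columns), as log2 CPM relative to the mean of the 3 controls, with colour clipped at 1.5. Foxj1, Dnaic2, Rsph1, Cfap126 and Cfap298 are mostly blue (lower) outside the controls, Dnah11 is red (higher) there, and stress replicate 3 is blue for many members.

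Foxj1 (chromosome 11, 116330704 to 116335499 on GRCm38.p6) was at 24, 22 and 14.8 CPM in the controls, at 15.5, 11.4 and 8.37 CPM in stress and at 16.4, 16.9 and 8.59 CPM in enriched mice. Control replicate 3 lay below the highest stress and enriched libraries, so both groups overlapped with control. The log2 fold change was -0.79 ± 0.30 (SE) in stress, with an unadjusted p of 0.0265 and an adjusted p of 0.546 by edgeR. In enriched mice it was -0.54 ± 0.30 with an adjusted p of 0.297 by edgeR, and -0.29 without enriched replicate 3. The order of the group means, 20.3 ± 4.83 in control, 14.0 ± 4.66 in enriched and 11.7 ± 3.57 CPM in stress (SD, n = 3), thus holds neighbours that do not differ beyond their spread. The lowest library of every group was replicate 3, which also had the lowest brain stem list level of its group (-0.60, -1.19 and -1.31 mean log2 CPM in control, stress and enriched). The part of that difference in tissue in the Foxj1 values was not tested.

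**Figure D2:**
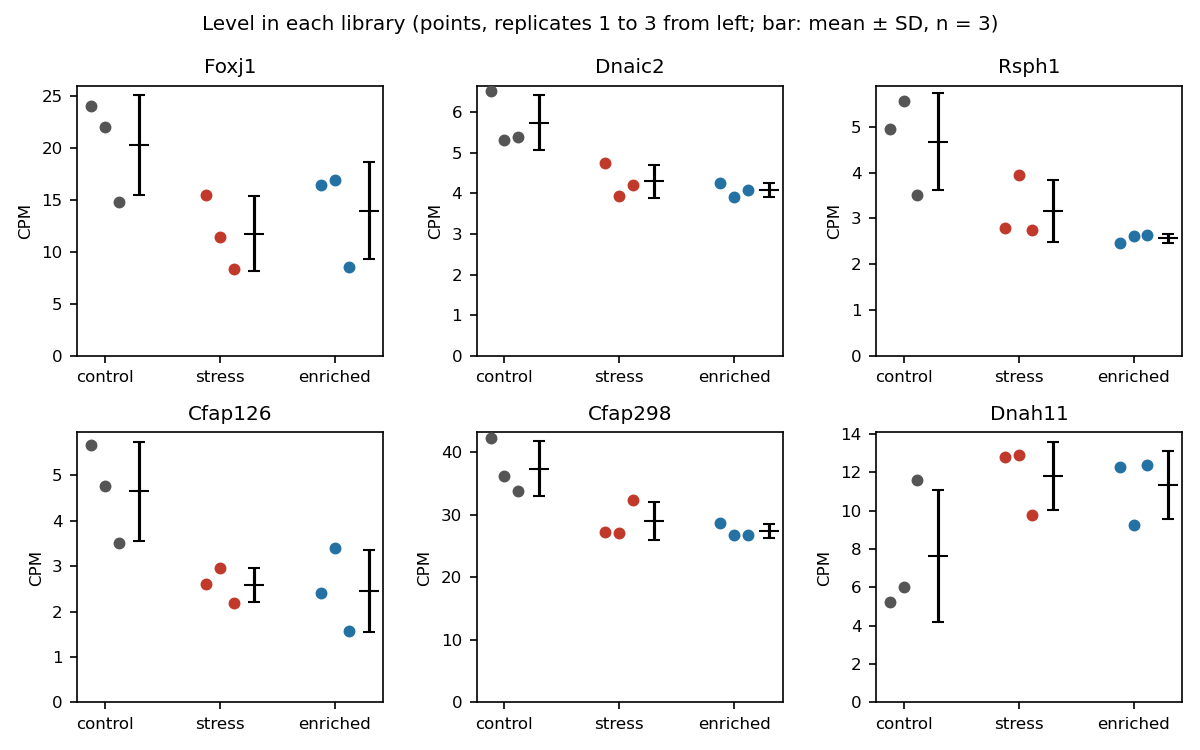
CPM of 6 members in each library (points, replicates 1 to 3 from left to right) with the group mean and SD (n = 3), on axes that start at 0. Dnaic2, Cfap126 and Cfap298 had every stress and enriched library below every control, Foxj1 overlapped, and Dnah11 had control replicates 1 and 2 at 5.25 and 6.04 CPM below the other 7 libraries.

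The intermediate chains anchor the outer dynein arm to the microtubule. Dnaic2 (chromosome 11, 114721341 to 114757889) was at 6.51, 5.31 and 5.39 CPM in the controls, at 4.74, 3.94 and 4.21 CPM in stress and at 4.25, 3.92 and 4.08 CPM in enriched mice. Every library of both groups lay below every control. Its log2 fold change was -0.42 ± 0.17 in stress and -0.49 ± 0.17 in enriched mice, with adjusted p of 0.546 and 0.237 by edgeR. Dnaic1, its partner, was at 4.10, 3.62 and 2.90 CPM in the controls, at 3.16, 2.71 and 2.08 CPM in stress and at 3.65, 2.85 and 3.51 CPM in enriched mice, and the groups overlapped.

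Radial spoke genes had all 5 log2 fold changes below 0 against control in both comparisons, with medians of -0.20 in stress and -0.27 in enriched mice. Rsph1 (chromosome 17, 31255019 to 31277296), a part of the spoke head, was at 4.95, 5.56 and 3.51 CPM in the controls, at 2.79, 3.94 and 2.75 CPM in stress and at 2.46, 2.62 and 2.63 CPM in enriched mice. The 3 enriched libraries lay below every control and every stress library, and stress replicate 2 lay above control replicate 3. The log2 fold change was -0.86 ± 0.24 in enriched mice (unadjusted p = 0.00467, adjusted p = 0.237 by edgeR) and -0.56 ± 0.23 in stress. Rsph9, another spoke head protein, was at 15.3, 10.3 and 10.7 CPM in the controls, at 11.1, 8.43 and 8.55 CPM in stress and at 8.69, 8.08 and 8.15 CPM in enriched mice. Its enriched libraries were all below the controls. Rsph3a and Rsph3b, near-identical copies of a spoke stalk gene between which reads are shared by estimation, had log2 fold changes of -0.09 and -0.20 in stress and of -0.09 and -0.27 in enriched mice.

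Dynein heavy chains are the motors of the arms. Of 14 heavy chains, 5 were below 0 in stress against control and 6 in enriched against control, and their median minus that of all genes was 0.23 and 0.11. For the other 42 axonemal members that difference was -0.18 and -0.26, and the 2 sets were not tested against each other. The heavy chain value in stress was -0.04 (7 of 14 below 0) without stress replicate 1, 0.50 without stress replicate 3 and 0.43 without control replicate 2, and it was 0.15 without control replicate 3. In enriched mice it was -0.07 (8 of 14) without control replicate 1, -0.02 (7 of 14) without control replicate 3 and 0.03 without enriched replicate 1. Dnah11 (chromosome 12, 117877982 to 118199043), an outer arm chain, was at 5.25, 6.04 and 11.6 CPM in the controls, at 12.8, 12.9 and 9.77 CPM in stress and at 12.3, 9.27 and 12.4 CPM in enriched mice. Control replicate 3 reached the level of the other groups, and the log2 fold change was 0.64 ± 0.28 in stress (unadjusted p = 0.048, adjusted p = 0.546 by edgeR). Dnah11 stood apart in other ways. Its mean level per length was 4.51 TPM, against 0.0633 to 1.08 TPM for the other 13 heavy chains, and 55.7% of its reads were given to 1 transcript with an implied length of 3841 bases, while its longest transcript has 14072. The other 13 chains had read-weighted lengths between 9442 and 17658 bases. Dnah11 shares its position with the coding gene Cdca7l, and no strand marking is described for the libraries, so whether reads of the 2 genes were mixed was not tested. Dnah9, an outer arm chain of the distal cilium, was at 2.53, 3.26 and 2.78 CPM in the controls, at 3.34, 2.52 and 1.83 CPM in stress and at 1.38, 2.62 and 1.38 CPM in the enriched libraries. The 2 low enriched libraries are those with little choroid plexus RNA and raised Omp. Stress replicate 1, also low in choroid plexus RNA (Ttr at 330 CPM), had the highest Dnah9 level of all libraries. The part of tissue content in the Dnah9 values was not tested. Dnah5, its partner in the outer arm, was at 1.57, 1.21 and 1.94 CPM in the controls and between 0.916 and 2.13 CPM in the other 6 libraries. The inner arm chains with the highest level per length were Dnah6 (1.08 TPM), Dnah7b (0.82 TPM, with the copies Dnah7a and Dnah7c sharing reads) and Dnah1 (0.781 TPM), with log2 fold changes of -0.23, 0.12 and 0.16 in enriched mice. Dnah8, a chain best known from sperm, was at 0.422, 0.362 and 0.363 CPM in the controls and between 0.431 and 0.911 CPM in the others, at most 15 reads in any library. It met the read minimum only through stress replicate 1 and enriched replicates 1 and 3 (15, 14 and 12 reads). Its place above the controls, and among the heavy chains above 0, was thus partly set by that rule.

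Assembly factors preassemble dynein arms. Dnaaf2 had log2 fold changes of 0.15 in stress and 0.10 in enriched mice, and Dnaaf5 of 0.00 and 0.04. Dnaaf4 had -0.31 and -0.46, with 2.95, 2.35 and 2.97 CPM in the controls and 1.74, 1.66 and 2.63 CPM in enriched mice.

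Among 27 Cfap genes, which code for proteins of cilia and flagella, 16 were below 0 in stress and 17 in enriched mice. Cfap298 (chromosome 16, 90925811 to 90934849), needed for dynein arm assembly, was at 42.3, 36.1 and 33.7 CPM in the controls, at 27.3, 27.1 and 32.4 CPM in stress and at 28.7, 26.7 and 26.7 CPM in enriched mice. All 6 libraries of the other groups lay below all controls. Its log2 fold change was -0.45 ± 0.12 in enriched mice, with the lowest unadjusted p of the members there (0.00398, adjusted p = 0.237 by edgeR), and -0.37 ± 0.12 in stress. Cfap126 (chromosome 1, 171113912 to 171126956), which helps place basal bodies, was at 5.67, 4.77 and 3.51 CPM in the controls, at 2.61, 2.95 and 2.2 CPM in stress and at 2.40, 3.39 and 1.57 CPM in enriched mice. Again no library of the other groups reached a control. The log2 fold change was -0.84 ± 0.30 in stress and -0.92 ± 0.30 in enriched mice. Cfap410, which is also used in primary cilia, was at 41.1, 37.6 and 32.9 CPM in the controls and at 30.3, 28.1 and 26.5 CPM in enriched mice, while stress (32.5, 29.2 and 33.9 CPM) overlapped. Cfap20, a microtubule protein of the inner junction with uses outside motile cilia, had log2 fold changes of -0.24 in stress and -0.31 in enriched mice, with no overlap in either. Cfap36, with the highest level per length of all members (116 TPM), had log2 fold changes of 0.13 and 0.01. Cfap97 had 0.27 (29.1, 33.5 and 36.1 CPM in the controls and 40.3, 39.0 and 39.4 CPM in stress), and Cfap69, known from olfactory cilia and sperm, had 0.52 and 0.50. Cfap44 (0.55 to 1.45 CPM) and Cfap47 (0.302 to 0.85 CPM), known from sperm flagella, are named for their order in stress against enriched, with log2 fold changes of -0.50 and 0.69.

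The promoters of Cfap298, Cfap126 and Rsph9, chosen after their values were seen among 5 named genes with the motif, are shown with 250 bases before an annotated start and 30 after it, because they hold a full X-box. The X-box was written as GTNNCC, 2 free bases and the reverse complement GGNNAC, so it reads the same on both strands. It is in capitals and was searched in windows of 300 bases from RefSeq, after the values had been seen. A looser form of the X-box was also searched and is not given here.
Cfap298 promoter, GRCm38.p6 chr16:90934820-90935099, minus strand: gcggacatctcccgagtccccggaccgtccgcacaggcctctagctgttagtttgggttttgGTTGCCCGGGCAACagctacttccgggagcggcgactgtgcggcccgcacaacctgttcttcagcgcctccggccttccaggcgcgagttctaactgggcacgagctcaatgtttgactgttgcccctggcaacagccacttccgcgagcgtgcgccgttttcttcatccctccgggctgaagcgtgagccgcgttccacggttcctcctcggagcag
Cfap126 promoter, GRCm38.p6 chr1:171122795-171123074, plus strand: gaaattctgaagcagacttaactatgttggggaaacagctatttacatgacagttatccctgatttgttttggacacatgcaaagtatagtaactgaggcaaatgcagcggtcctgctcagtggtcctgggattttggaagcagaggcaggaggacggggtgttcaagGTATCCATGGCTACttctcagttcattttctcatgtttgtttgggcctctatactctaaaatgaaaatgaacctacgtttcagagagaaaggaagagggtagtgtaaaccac
Rsph9 promoter, GRCm38.p6 chr17:46144171-46144450, minus strand: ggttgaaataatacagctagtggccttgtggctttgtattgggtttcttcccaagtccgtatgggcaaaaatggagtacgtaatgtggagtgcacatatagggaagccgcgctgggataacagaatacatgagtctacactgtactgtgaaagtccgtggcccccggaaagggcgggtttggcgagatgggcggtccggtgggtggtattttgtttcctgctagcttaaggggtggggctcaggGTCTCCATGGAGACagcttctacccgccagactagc

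The X-box was found in at least 1 window of 8 of the 54 members with a promoter (14.8%), against 2.16% of 27025 genes. Unlike the members, those genes were not limited to the ones with enough reads, and windows per gene were not matched. The members were Cfap126, Cfap206, Cfap20dc, Cfap298, Dnaaf5, Rsph9, Spag5 and Spag6l. The shorter form GTTGCC, searched on both strands (GGCAAC), was in 22 of 54 members (40.7%) against 14.14% of genes, and it may lie inside a full X-box. A forkhead motif, TGTTTAC or GTAAACA, the kind Foxj1 proteins bind, was in 3 of 54 (5.6%) against 4.05%. These are matches of letters in a window, not sites shown to be bound. In enriched against control, 6 of the 8 members with an X-box had a log2 fold change below 0, beside 41 of all 63 members and 48.3% of all genes. The log2 fold change was -0.92 for Cfap126, -0.55 for Spag5, -0.54 for Rsph9, -0.45 for Cfap298, -0.40 for Cfap206 and -0.35 for Spag6l. It was 0.04 for Dnaaf5 (-0.01 with the length trend removed) and 0.13 for Cfap20dc.

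Among 10 Spag genes, 5 were below 0 in stress and 8 in enriched mice. Spag5, a mitotic spindle protein and not an axonemal one, was at 24.1, 24.6 and 19.8 CPM in the controls and at 12.8, 17.8 and 16.1 CPM in enriched mice, all below the controls, with a log2 fold change of -0.55 ± 0.20. Spag9, a scaffold of kinase signalling, had the highest counts of all members (161 to 309 CPM) and log2 fold changes of 0.20 and 0.39. Spag7 had 0.21 in stress and -0.11 in enriched mice, and Spag4, a nuclear envelope protein, had 0.08 and -0.43. Spag6 and Spag6l, copies of a central pair gene that share reads, had 0.41 and -0.35 in enriched mice. The 7 members with known uses outside the motile axoneme (Spag5, Spag7, Spag9, Cfap20, Cfap36, Cfap97 and Cfap410) had a median of 0.13 in stress and -0.11 in enriched mice, and the other 56 had -0.10 and -0.15.

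Fold changes of the members moved with transcript length, and long transcripts were low in control replicates 1 and 2 and in stress replicate 3. The slope of log2 CPM, relative to the mean of all libraries, per doubling of transcript length was -0.247, -0.088 and 0.027 in control replicates 1 to 3, against 0.048, 0.075 and -0.083 in stress and 0.038, 0.105 and 0.126 in enriched mice. In enriched against control, the median log2 fold change of axonemal members was -0.46 under 2 kb (11 genes), -0.22 from 2 to 4 kb (21) and 0.09 over 4 kb (23), and for all genes of these lengths it was -0.27, -0.02 and 0.20. In stress against control it was -0.36, -0.15 and 0.06, against -0.16, -0.01 and 0.13. When the length trend of each library was removed, the 3 medians were -0.23, -0.21 and -0.30 in enriched mice and -0.25, -0.18 and -0.14 in stress, with all genes between -0.04 and 0.00. The heavy chains, all with a longest transcript of at least 12009 bases, then had 11 of 14 below 0 in enriched mice and 7 of 14 in stress. In the same fit Rsph9 was at -0.22 in enriched mice (-0.54 before), Cfap298 at -0.23 (-0.45) and Rsph1 at -0.6 (-0.86). Cfap126 was at -0.62 (-0.92 before), Dnaic2 at -0.49 (-0.49) and Foxj1 at -0.51 (-0.54).

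**Figure D3:**
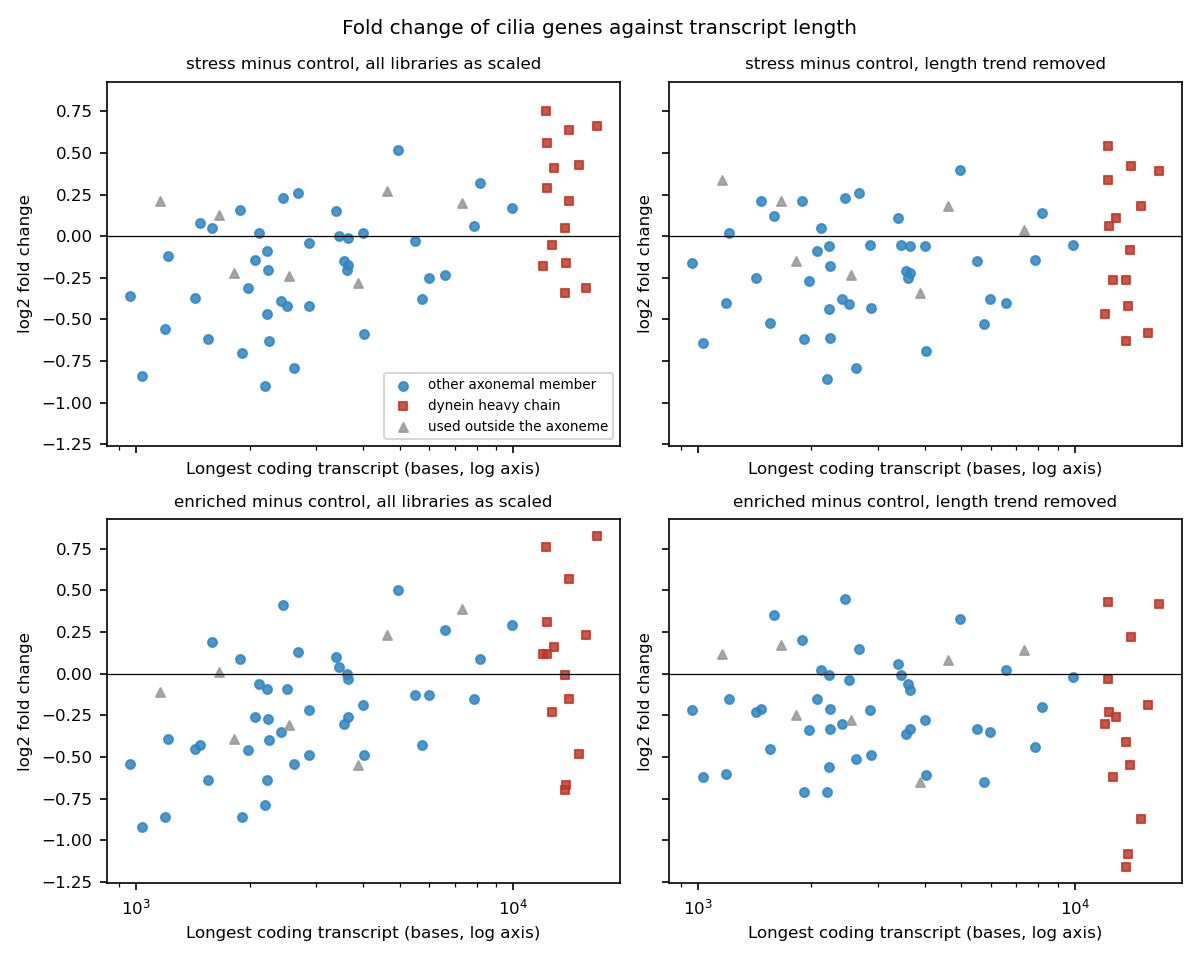
Log2 fold change of each of the 62 members with a known length (y axis) against its longest coding transcript (x axis, log scale), for stress (top) and enriched (bottom) against control, before (left) and after (right) removal of each library's length trend. Heavy chains (squares) lie on both sides of 0 on the left (5 and 6 of 14 below) and lower on the right (7 and 11 of 14 below).

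Choroid plexus level also moved with the groups. The list of 13 choroid plexus genes had a mean log2 CPM of 4.53, 4.6 and 5.05 in the controls, 2.94, 4.11 and 3.54 in stress, and 1.53, 4.31 and 1.19 in enriched mice, with 13 of 13 genes below 0 in both comparisons with control. The axonemal members had 1.47, 1.52 and 1.45 in the controls, 1.64, 1.44 and 1.08 in stress, and 1.32, 1.40 and 1.31 in enriched mice. Stress replicate 1, low in choroid plexus, had the highest axonemal level, and stress replicate 3 had the lowest. With the choroid plexus level as a covariate, 33 of 63 members were below 0 in stress and 39 in enriched mice, beside 7098 and 7103 of 14737 genes. The members' medians were then -0.03 and -0.17, against 0.01 and 0.02 over all genes. In that fit the log2 fold change in enriched mice was -0.79 for Rsph1, -0.51 for Cfap298 and -0.62 for Dnaic2. It was -0.44 for Cfap126 (-0.92 without the covariate) and -0.37 for Foxj1. With enriched replicate 2 alone in its group, the only enriched library with a choroid plexus level near the controls and without raised Omp, the median of the members was -0.13, Foxj1 was at -0.27 and 8 of 14 heavy chains were below 0. A list of airway epithelium genes stood at 0.46 mean log2 CPM in that library, against -1.03, -1.26 and -0.81 in the controls. That lone library was assumed to vary like the other groups, and this fit was chosen after the data were seen. With the covariate alone, 7 of 14 heavy chains were below 0 in enriched mice and 4 of 14 in stress, with medians -0.04 and 0.11 from that of all genes. With the length trend removed and the covariate together, chosen after the data were seen, 14 of 14 heavy chains were below 0 in enriched mice and 10 of 14 in stress. Their median stood -0.46 and -0.14 from the median of all genes. In the enriched comparison the chain nearest 0 was Dnah11 at -0.04, corrected by its longest transcript of 14072 bases although its read-weighted length was 4766. Outside the heavy chains, both terms together gave -0.49 for Rsph1, -0.31 for Rsph9, -0.25 for Cfap298 and -0.07 for Cfap126 in enriched mice. Dnaic2 was then at -0.62 and Foxj1 at -0.33. No member was called in either fit. The choroid plexus level was estimated from the same 9 libraries, and its part in the result was not tested beyond these fits.

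**Figure D4:**
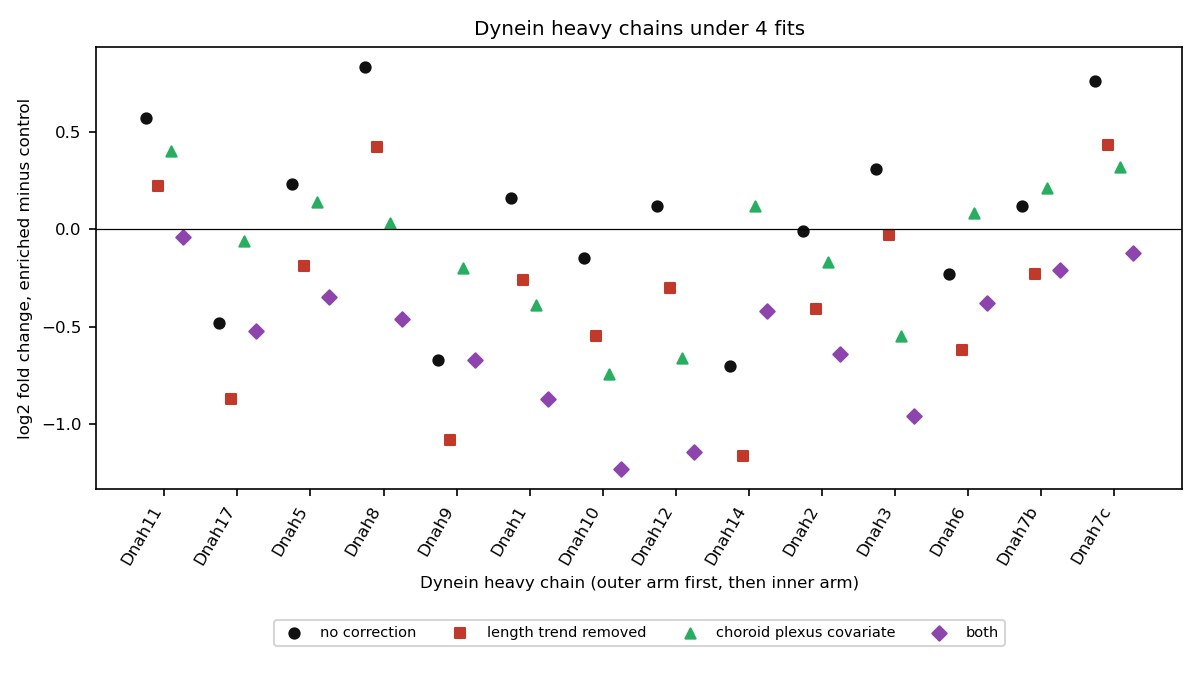
Log2 fold change of the 14 dynein heavy chains in enriched against control (y axis), from 4 fits marked by colour and shape. The points without correction (circles) lie on both sides of 0 (6 below), those with the length trend removed (squares) are below 0 for 11 chains, those with the choroid plexus covariate (triangles) for 7, and those with both terms (diamonds) are below 0 for all 14.

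**Figure D5:**
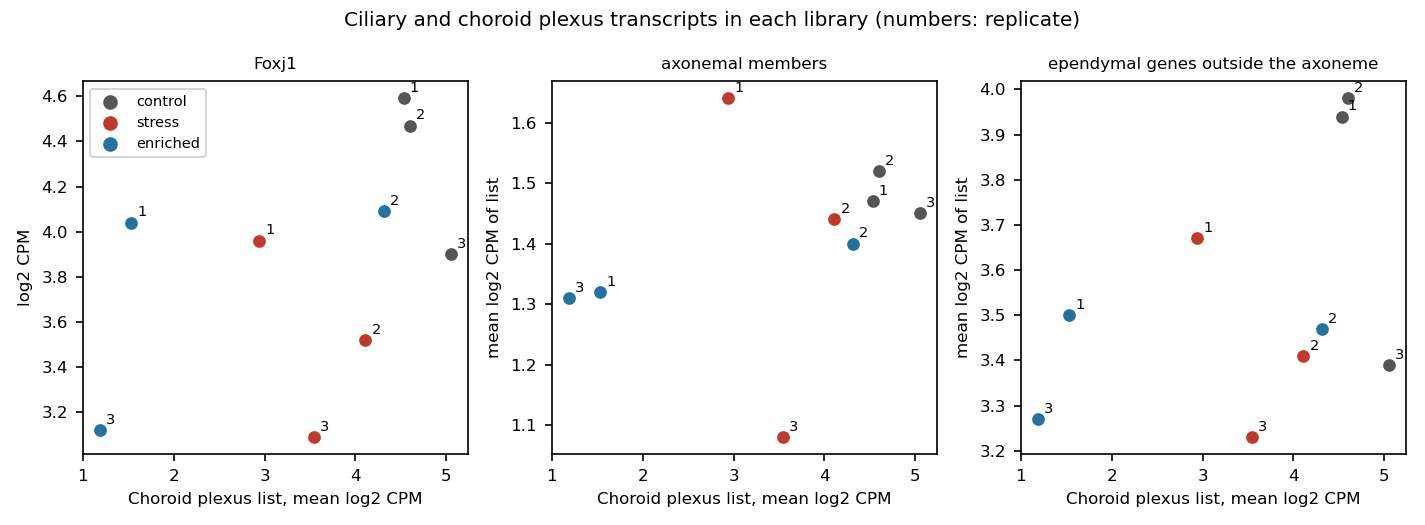
Level of Foxj1, of the axonemal members and of ependymal genes outside the axoneme (y axes, log2 CPM) against the mean log2 CPM of the choroid plexus list (x axis), 1 point per library with its replicate number. Controls lie at the right, enriched replicates 1 and 3 at the left at 1.53 and 1.19, and stress replicates 1 and 3 differ most in axonemal level (1.64 and 1.08).

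Among gene lists outside the symbol rule, of 43 other axonemal genes, 30 were below 0 in stress and 35 in enriched mice, with 0 called and medians of -0.23 and -0.33. Tppp3, a microtubule-bundling protein, was at 210, 164 and 87.6 CPM in the controls and at 107, 85.5 and 69.2 CPM in enriched mice. Ependymal genes outside the axoneme had 11 of 13 below 0 in both, while Cd24a was above 0 in both (0.24 and 0.33). S100b was at 584, 592 and 420 CPM in the controls and at 417, 356 and 362 CPM in enriched mice. Its mean level was 573 TPM, against 5.17 TPM for Ccdc153 and 3.93 TPM for Tmem212, and which cells gave its reads was not tested. The regulators of multiciliated cells had 6 and 5 of 11 below 0. Rfx3, a regulator that binds the X-box, had log2 fold changes of 0.40 and 0.46. Its levels were 11.3, 19.4 and 22.7 CPM in the controls, 24.6, 25.3 and 20.5 CPM in stress and 18.8, 27.4 and 27.5 CPM in enriched mice. Other RFX factors of the list, Rfx2 and Rfx4, had -0.22 and 0.11 in stress and -0.02 and 0.23 in enriched mice. Trp73, another regulator, had -0.62 and -0.49. Intraflagellar transport genes, which primary and motile cilia both need, had 11 and 10 of 23 below 0, beside 47.7% and 48.3% of all genes. Among the lists for other cells, airway epithelium had 5 of 5 tested genes (14 were named) above 0 in both comparisons. Its mean log2 CPM was 1.08 ± 0.56 in enriched mice against -1.03 ± 0.23 in control (SD, n = 3). Bpifa1 and Reg3g of this list met the read minimum only through the enriched libraries. The count and the mean of the list in enriched mice were thus partly set by that rule. Olfactory sensory neuron genes had 4 and 6 of 8 above 0 and tanycyte genes 4 of 5 in both. Brain stem genes had 12 and 16 of 16 below 0, and cerebellar genes 6 and 5 of 8. No gene of these lists was called by edgeR, while DESeq2 called 1 airway gene and 2 olfactory genes in enriched against control.

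The gene most like Foxj1 over the 9 libraries was Gfap, the intermediate filament of astrocytes, with Pearson's r of 0.969 and Spearman's rho of 0.933 in log2 CPM. Gfap was at 520, 483 and 418 CPM in the controls, at 477, 391 and 333 CPM in stress and at 453, 444 and 342 CPM in enriched mice, so its order of libraries within each group matched that of Foxj1 in control and stress. The next 4 were Fam166c (r = 0.937), Ttc21a (0.924), Tmem98 (0.919) and Cd81 (0.915). These were picked for the highest r among all tested genes, and the libraries share depth, tissue and group, so r is given as a description. Of 55 other axonemal members, 18 had r above 0.5 with Foxj1, against 17.4% of other genes, and their median r was 0.28 against -0.02. The member with the highest r was Cfap126 (0.86), and Dnah11 had -0.66.

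The calls changed with 1 control library. When control replicate 3 was left out, edgeR called 4 members in enriched against control, Dnah11 (log2 fold change 1, adjusted p = 0.0409), Rsph1 (-1.03, 0.0424), Cfap410 (-0.47, 0.0433) and Cfap298 (-0.52, 0.0433), at a setting in which 1606 genes, 10.9% of those tested, were called. The remaining controls in that fit are the 2 with low levels of long transcripts. They also had a higher brain stem list level, 2.2 and 2.33 mean log2 CPM against -0.6 in control replicate 3. The part of either difference in these calls was not tested.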

How the data were processed

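Bulk RNA sequencing covered 9 mouse brains, 3 per group. Per the labels, messenger RNA was taken with oligo(dT) beads and copied with random hexamers, and no strand marking is described. Tools listed in the submitters' processing notes are RSEM 1.2.12, HISAT2 2.0.4 and Bowtie2 2.2.5, with build GRCm38.p6. The deposited estimated counts per RefSeq transcript need not be whole, and the deposited TPM is scaled by transcript length and library size, by the authors. The deposited table has 65535 transcript rows, so a gene is the sum of the transcripts with a row, and all coding transcripts were present for 38 of the 63 members.

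Counts were summed to 18450 genes and rounded, and genes with at least 10 reads in 3 libraries were tested with edgeR 4.0.16 (quasi-likelihood, robust, TMM) in R 4.3.3, all 9 libraries in 1 fit with 6 residual degrees of freedom, adjusted by Benjamini-Hochberg over 14737 genes (threshold 0.05). The rule for low reads let in members by their own level, so members that passed do not stand for the 12 that did not (at most 15 reads in any library) or the 3 without a row. Transcript lengths came from the longest coding transcript, and length trends were loess curves (span 0.5) per library. DESeq2 1.42.0, limma 3.58.1 and the other alternatives are described in the closing section. Members and gene lists were chosen with earlier results of these data known. Members named are Foxj1, the 3 highest by mean TPM in each role, the 3 lowest p in each direction and comparison, and any called. The rule also took the 2 genes of highest TPM per list, of which Tppp3, S100b and Ttr are given, and some are not reported here. Rfx2, Rfx3, Rfx4, Trp73, Cd24a, Omp, Ccdc153, Tmem212 and the members Cfap20dc, Cfap206, Spag6 and Spag6l were chosen after their values were seen. Each title carries its own animal code, so replicates were taken as separate animals. No pair of libraries agreed within sampling noise (chi-square per gene of at least 7.61). The fit was tested on simulated data.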

Additional observations from a re-analysis of the deposited data

How the results depend on the processing

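No paired analysis was possible because replicate numbers follow the order of deposit and pair no animals. The count of called members was 0 in all 3 comparisons under DESeq2, limma-voom, other size factors, other filters, TPM, length and choroid plexus terms, the code letter term and 2 groups alone. Leaving out 1 library gave 0 to 4 called in enriched against control, 4 only without control replicate 3. In enriched against control the median log2 fold change of the members was -0.15. It was -0.01 with TPM + 0.1 and 0.00 with TPM + 1, where the median of all genes was 0.19 and 0.16. It was -0.17 with the choroid plexus term alone, -0.23 with the length trend removed and -0.25 with both. Without 1 library it ran from -0.18 to -0.08. In stress against control it ran from -0.21 to 0.04 without 1 library, and in stress against enriched from -0.02 to 0.16. Depth limits the members with few reads, and the cause of these shifts was not tested.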
